A study of Mus musculus with 10 samples.

Results

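The 64 genes described here are the protein-coding histone genes of the clusters on mouse chromosomes 13 and 3, of 19134 protein-coding genes on the analysed chromosomes. They were chosen by name, as genes whose older symbols start with Hist1h or Hist2h or whose newer symbols are H1f1 to H1f6, H2ac, H2bc, H3c or H4c with a number. Of the 64, 6 encode linker histones (H1f1 to H1f6) and 58 encode core histones, with 17 H2A, 17 H2B, 12 H3 and 12 H4 genes. H4bc24, whose older symbol is Hist1h2br, was counted with the H2B genes.

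The libraries came from KH2 mouse embryonic stem cells, a line built to take up 1 doxycycline-inducible transgene at a fixed site, and all 8 analysed libraries came from cells that carried the pBS31 vector with HA-tagged SET and received 1 µg/ml doxycycline for 24 h. In SETα addback (SETa in the labels) and SETβ addback (SETb) the transgene was expressed in SET KO cells. In SETα overexpression and SETβ overexpression it was expressed in cells that kept their own SET. Each group was a cell line of its own, so cell line and group cannot be told apart, and the labels do not say whether replicates 1 and 2 of a group were separate cultures. The cells were grown on feeder fibroblasts, which were depleted before harvest, crosslinked with DSG and formaldehyde, and precipitated with an HA antibody. Peak lists hold no expression values, so the labelled cell type could not be checked against its marker genes. The uninduced SET KO samples were not analysed here, and the values have no uninduced background beside them.

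SET is a histone chaperone, a protein that binds histones and keeps them from unspecific contacts with DNA, and its isoforms SETα and SETβ differ at the start of the protein. Core histones (H2A, H2B, H3 and H4) form the nucleosome around which DNA is wrapped, and linker histones (H1) bind where DNA enters and leaves it. The clustered histone genes are short, have no introns in their usual form and are transcribed mainly while DNA is replicated, at a nuclear site called the histone locus body, and their mRNAs end in a stem-loop in place of a poly(A) tail. Embryonic stem cells divide fast and express most of these genes, while H1f6 (the linker histone H1t) and the pair H2ac1 and H2bc1 are known from the testis.

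The genes lay in 5 blocks, named by position on GRCm38. On chromosome 13, the first block (21715711 to 21837530) held 18 histone genes and 1 linker gene among them, H1f5. The next (22035122 to 22043658) held 5 core genes. The largest block (23531044 to 23764412) held 29 genes, with the other 5 linker genes, and the last one on this chromosome (23933725 to 23934913) held the pair H2bc1 and H2ac1. The block on chromosome 3 (96219885 to 96270192) held 10 core genes. Of the 64 genes, 58 were at most 1000 bp long, the median being 492.5 bp against 17473 bp over all protein-coding genes. The gene with 1 kb on either side was searched for a peak, so a long gene had more bases in which to meet one. Among the 59 members with a listed start, an H2A and an H2B gene stood head to head in 10 places. The gaps between their ends were 163 to 280 bp, so 1 peak could reach both.

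The upstream sequences of 4 members that the results describe are shown, to set the place of their summits against the promoter. They were picked by the number of libraries with a peak, ties going to the better mean rank within the lists. H1f6 was the linker gene with the most libraries and H1f5 was among those with the fewest. H2ac13 and H3c6 were the core genes with the most, H3c6 after a tie. H3c6 was also the member with a replicate-tested peak and with summits inside the printed window. Each is the 250 bases before the listed transcription start, from RefSeq on GRCm38.p6, in the 5′ to 3′ direction of the gene. Capitals mark motifs known from histone promoters, each read on either strand. They are CCAAT, the TATA box (searched as TATAAA), the octamer of H2B genes (searched as ATGCAAA) and the core of the H1 box (searched as AACACAA).
H1f6, chr13:23695561-23695810, plus strand: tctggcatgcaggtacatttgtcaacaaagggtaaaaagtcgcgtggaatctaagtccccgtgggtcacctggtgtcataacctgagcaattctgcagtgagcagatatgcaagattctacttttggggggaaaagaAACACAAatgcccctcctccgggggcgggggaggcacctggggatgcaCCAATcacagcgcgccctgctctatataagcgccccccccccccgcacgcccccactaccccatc
H1f5, chr13:21780626-21780875, minus strand: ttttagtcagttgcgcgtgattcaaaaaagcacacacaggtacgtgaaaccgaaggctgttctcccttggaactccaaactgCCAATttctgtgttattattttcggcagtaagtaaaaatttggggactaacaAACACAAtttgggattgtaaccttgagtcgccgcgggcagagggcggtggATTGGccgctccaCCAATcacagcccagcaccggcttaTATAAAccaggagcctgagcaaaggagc
H2ac13, chr13:21716162-21716411, plus strand: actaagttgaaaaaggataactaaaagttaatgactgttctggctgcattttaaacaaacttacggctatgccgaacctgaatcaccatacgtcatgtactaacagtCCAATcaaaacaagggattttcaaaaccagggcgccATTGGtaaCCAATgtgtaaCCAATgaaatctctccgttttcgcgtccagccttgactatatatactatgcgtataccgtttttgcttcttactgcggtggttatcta
H3c6, chr13:23562386-23562635, minus strand: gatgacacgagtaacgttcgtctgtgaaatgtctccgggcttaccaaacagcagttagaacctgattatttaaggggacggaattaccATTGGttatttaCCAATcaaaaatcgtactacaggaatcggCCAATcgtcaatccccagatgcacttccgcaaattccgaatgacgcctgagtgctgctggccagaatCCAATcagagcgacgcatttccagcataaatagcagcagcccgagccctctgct

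In these windows, H3c6 and H2ac13 held 4 CCAAT motifs each, and the linker genes H1f6 and H1f5 each held AACACAA. Over the windows of 300 bases, which also include the first 50 bases of the transcript, a sequence was listed for 59 of the 64 members and for 15496 protein-coding genes. CCAAT, which reads ATTGG on the opposite strand, was in 51 of 59 members (86.4%) and in 39.0% of all windows. It was in all linker, H2A, H2B and H3 windows and in 3 of 11 H4 windows. TATAAA was in 34 of 59 (57.6%, against 13.4% of all windows), and ATGCAAA in 13 of 59 (22.0%, against 4.16%), among them 6 of 15 H2B windows and 0 of 6 linker windows. AACACAA was in 4 of 6 linker windows and in 4 core windows, against 3.88% of all windows. GCGCC, which is not marked above, was in 33 of 59 (55.9%, against 45.9%). The windows of H2bc23 and H4bc24 were identical over all 300 bases, and how the aligner placed reads that match several histone genes is not given in the sources used here.

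With SETα in SET KO, most histone genes had a peak. In SETα addback 45 of 64 genes had one in replicate 1 and 46 in replicate 2, or 70.3% and 71.9%, where 46.7% and 41.2% of all protein-coding genes did. With SETβ in SET KO the numbers were 2 and 13 genes (3.12% and 20.3%), where 10.7% and 28.4% of all genes had a peak. SETα overexpression gave 0 and 3 genes, against 2.52% and 4.68% of all genes. SETβ overexpression gave 15 and 16 genes (23.4% and 25.0%), against 1.62% and 4.75%. The histone genes thus had a larger share than all genes in both SETα addback and both SETβ overexpression libraries, a smaller one in both SETβ addback libraries, and 1 smaller and 1 nearly equal share in the SETα overexpression libraries.

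The mean number of genes was 45.5 ± 0.71 for SETα addback and 7.50 ± 7.78 for SETβ addback (SD, n = 2 each). It was 1.50 ± 2.12 for SETα overexpression and 15.5 ± 0.71 for SETβ overexpression (SD, n = 2 each). SETα addback exceeded SETβ addback by 38 genes, against a spread between replicates of 5.52, and the libraries did not overlap. In overexpression the order was the opposite, with SETα below SETβ by 14 genes (a difference of −14) against a spread of 1.58, and again no overlap. With 2 libraries against 2 the smallest possible p of an exact permutation test is 0.333, so neither difference could pass that test, and no other test was made of them. Addback exceeded overexpression by 18 genes when both isoforms counted equally (spread 4.06), but both SETβ addback libraries lay below both SETβ overexpression libraries.

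**Figure D1:**
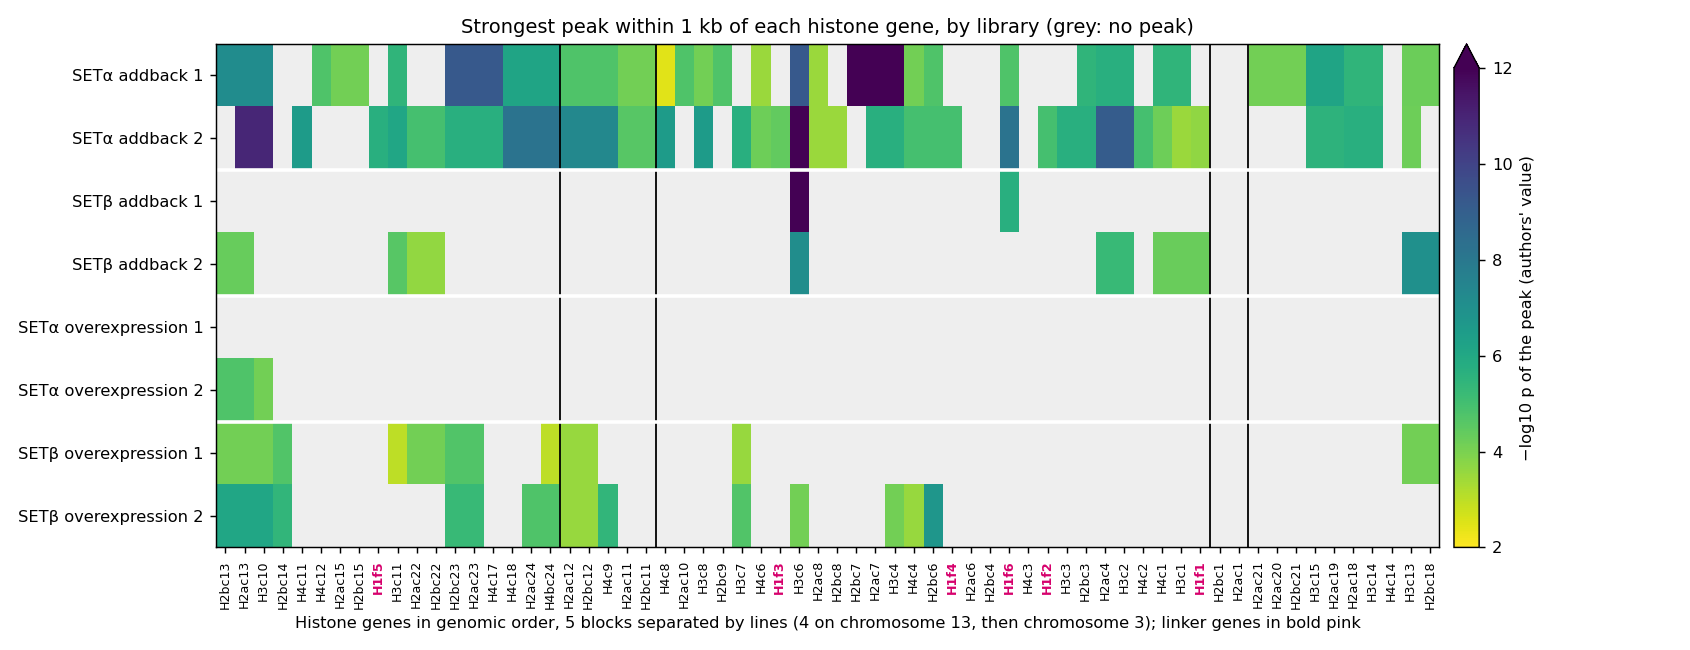
Heat map with the 64 histone genes in genomic order along the horizontal axis, the 8 libraries on the vertical axis, and colour giving the authors' −log10 p of the strongest peak within 1 kb of the gene (grey, no peak). SETα addback covers 45 and 46 genes in rows 1 and 2, SETβ overexpression covers 15 and 16 in the bottom rows, and the linker genes (pink labels) are grey in all 4 overexpression libraries.

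The lists differed in length, from 1343 to 22176 peaks, so the members were also counted among an equal number of peaks. Among the strongest 1343 peaks of each library, ranked by −log10 p, SETβ overexpression had 15 and 13 histone genes, where 1.62% and 2.06% of all genes had such a peak. SETα addback had 7 and 9 (against 5.92% and 6.76%), SETβ addback had 2 and 3 (against 6.56% and 6.34%) and SETα overexpression 0 in each (against 1.23% and 1.19%). At equal length SETβ overexpression therefore held the most histone genes, above both SETα addback libraries, and the difference of addback minus overexpression was −1.75 genes.

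The members were also counted at stricter thresholds of the peak caller. With a −log10 q of at least 5, SETα addback had 7 and 5 members (against 4.86% and 5.17% of all genes), SETβ addback had 1 and 0 (against 3% and 2.91%), and each overexpression library had 0. The share of all genes there was 0.0314% and 0.12% with SETα and 0.0157% and 0.0314% with SETβ. With a q of at most 0.05, SETα addback had 31 and 38 members (against 30.8% and 31.4%) and SETβ addback 2 and 5 (against 5.85% and 10.3%). SETα overexpression then had 0 in each (against 0.491% and 1.34%), and SETβ overexpression had 0 and 4 (against 0.12% and 0.392%). The order of the groups in SET KO was the same under each of these thresholds, while the 15 members of SETβ overexpression replicate 1 were all lost at a q of at most 0.05.

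Between the isoforms in SET KO, the gap narrowed at equal list length. Among the strongest 2518 peaks, the size of the shortest addback list, SETα had 10 and 15 histone genes (against 10.4% and 11.4% of all genes) and SETβ had 2 and 5 (against 10.7% and 10.6%). Among the strongest 9768 peaks SETα had 31 and 39 (against 29.4% and 32.1%), and SETβ replicate 2 had 13 (against 28.4%). SETβ addback replicate 1, with 2518 peaks, was too short for that count. Both SETα libraries were above both SETβ libraries among the strongest 1343 and 2518 peaks. Among the strongest 500, SETα addback had 0 and 1 members (against 2.68% and 2.78% of all genes) and SETβ addback 1 and 0 (against 2.93% and 2.92%), so the libraries of the isoforms overlapped there. In the counts at equal length the share of all genes differed little between the isoforms. SETα overexpression had most of its 4807 and 7675 peaks on chromosome 6, which holds none of the 64 genes. Without that chromosome its lists had 1421 and 2774 peaks, close to the 1240 and 2605 of SETβ overexpression. On genes outside chromosome 6 the shares with a peak were 1.42% and 3.51% with SETα and 1.56% and 4.65% with SETβ.

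**Figure D2:**
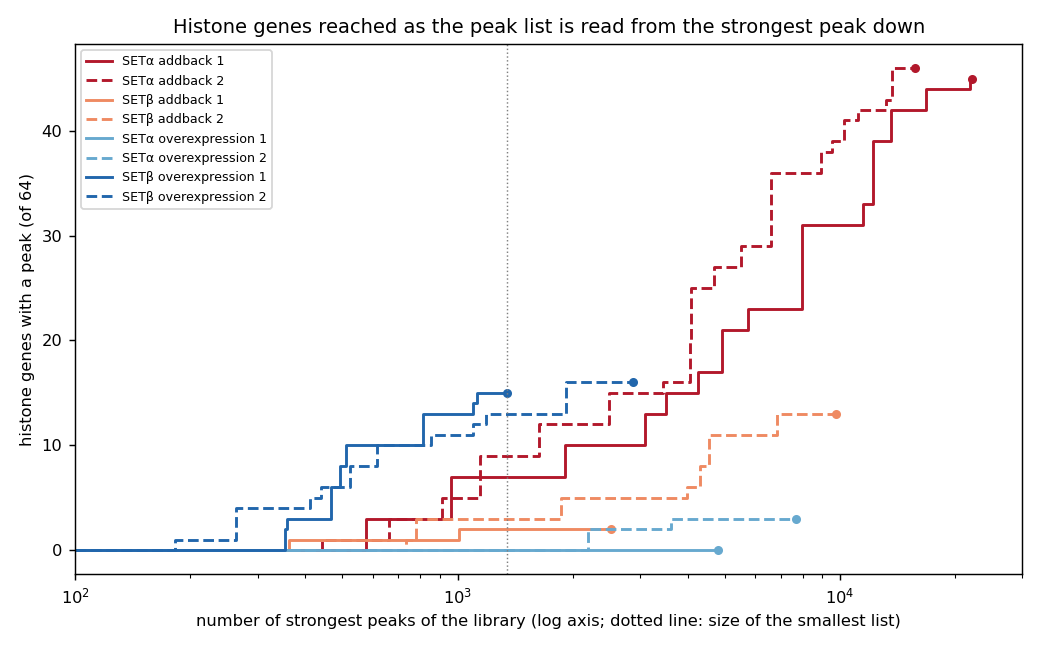
Number of histone genes (of 64) with a peak against the number of strongest peaks read from each library's list, on a log axis, with 1 line per library and a dot at the end of each list. At the dotted line, 1343 peaks, the SETβ overexpression lines stand at 15 and 13 genes, SETα addback at 7 and 9, SETβ addback at 2 and 3 and SETα overexpression at 0.

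Within 1 kb, linker histone genes had peaks in addback libraries but in no overexpression library. In SETα addback 1 and 6 of the 6 linker genes had one, in SETβ addback 1 and 1, and in each of the 4 overexpression libraries 0. Of 58 core genes, SETα addback had peaks at 44 and 40, SETβ addback at 1 and 12, SETα overexpression at 0 and 3 and SETβ overexpression at 15 and 16. Of all genes, 46.7% and 41.2% had a peak in SETα addback and 10.7% and 28.4% in SETβ addback. In addback the linker share minus the core share was −4.31 percentage points, far less than the spread of 46.1 points between replicates, so it was not distinguishable from it. In overexpression the linker share was 0 and the difference −14.7 points, against a spread of 2.73. That difference was −1.72 points with peaks of a q of at most 0.05 and 0 with a −log10 q of at least 5. Of 6 genes, a share of 26.7%, the core mean of SETβ overexpression, amounts to fewer than 2, so the 0 of 6 linker genes rests on very few genes. The share of all genes in the overexpression libraries, 1.62% to 4.75%, amounts to fewer than 1 of 6, so the 0 linker genes are near that background. With 2.5 kb on either side of the gene, SETβ overexpression replicate 1 had 1 linker gene.

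**Figure D3:**
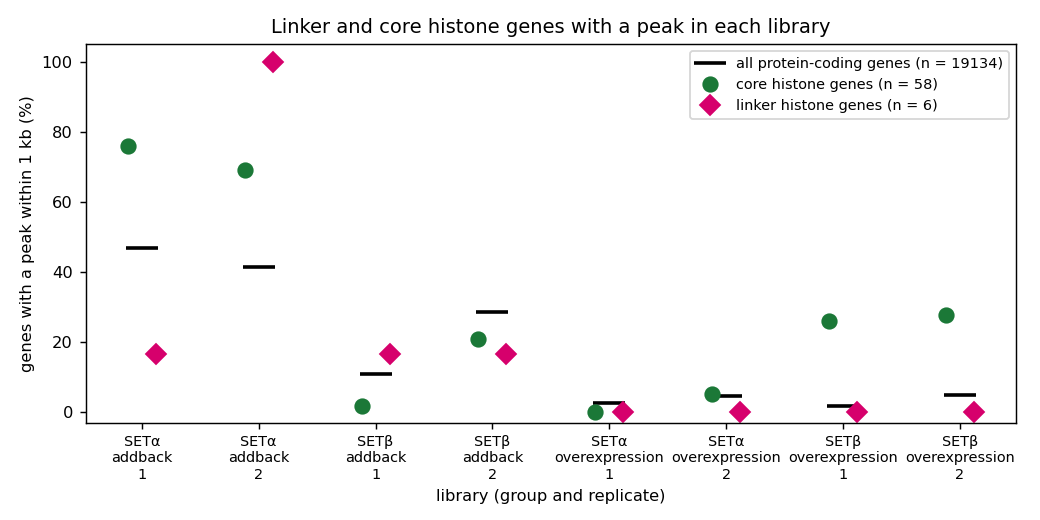
Percentage of genes with a peak within 1 kb in each of the 8 libraries, for linker histone genes (6, diamonds), core histone genes (58, circles) and all protein-coding genes (19134, bars). The linker share was 100% in SETα addback replicate 2 and 16.7% in the other 3 addback libraries, and core genes lay above all genes in both SETα addback and both SETβ overexpression libraries.

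H1f6, the testis linker histone (chromosome 13, 23695811 to 23696545), was the linker gene with peaks in the most libraries, 3 of 8. Its peaks had a −log10 p of 4.77 in SETα addback replicate 1, 8.20 in SETα addback replicate 2 and 5.69 in SETβ addback replicate 1, with fold enrichments of 3.24, 4.88 and 3.54. Their summits lay 593, 639 and 646 bp into the gene, near its end and not in the promoter shown above. H1f6 was thus the linker gene found with both isoforms at nearly the same place, and no overexpression library listed it (exact test of 4 addback against 4 overexpression libraries, p = 0.143, adjusted p = 0.484 over 11626 genes).

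H1f1 (23763668 to 23764412), a somatic linker histone, had peaks in SETα addback replicate 2 and SETβ addback replicate 2, with a strongest −log10 p of 3.66 and 4.29. The peak of 3.66 lay past the end of H1f1, with its summit 1159 bp from the start. In that library the peak with its summit in H1f1 had a −log10 p of 3.51 at rank 13649. H1f2, H1f3, H1f4 and H1f5, the other somatic linker histones, were listed in SETα addback replicate 2 alone. Their strongest −log10 p values were 4.93, 4.39, 4.93 and 5.70, at ranks 6595, 9517, 6594 and 4064 of 15701 peaks. The peak of 4.93 counted for H1f4 lay outside that gene, with its summit nearest to the start of H2bc6 (−176 bp), and the peak with its summit in H1f4 had a −log10 p of 3.51 at rank 13647. The summit of the H1f5 peak (chromosome 13, 21779411 to 21779619) lay 1064 bp from the start, past the end of the gene and outside the promoter printed above. With the exception of H1f6, each linker gene therefore rested on 1 or 2 libraries.

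H3c6, an H3 gene on the minus strand (chromosome 13, 23561475 to 23562385), had a peak in all 4 addback libraries, the only member of which this held. Over all protein-coding genes 7.11% had a peak in all 4. The −log10 p was 9.22 and 15.98 in SETα addback and 17.6 and 7.09 in SETβ addback, and the fold enrichment was 4.73, 7.48, 6.19 and 3.83. The peaks ranked 963, 442, 363 and 735 in their lists, and in SETα addback replicate 2 and both SETβ addback libraries this was the best rank of any member. In SETα addback replicate 1 the best rank, 577, was at H2ac7.

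The 4 summits at H3c6 lay upstream of the start, at −195, −217, −144 and −187 bp, inside the window printed above. Its CCAAT motifs start at −162, −150, −121 and −54, so 1 summit lay among them and 3 lay farther upstream. SETα addback replicate 1 had a second peak with its summit 610 bp into the gene. SETβ overexpression replicate 2 also listed H3c6, at rank 1100 of 2869 with a −log10 p of 4.14, but its summit lay 517 bp into the gene and its peak (23561673 to 23562016) did not reach the promoter. The presence of a peak in 4 addback and 1 overexpression libraries gave an exact p of 0.143 (adjusted p = 0.484).

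H3c6 was also the only member in a list of replicate-tested peaks. The authors' irreproducible discovery rate (IDR) compares how the replicates of a group rank the same peak. The SETα addback IDR list held the H3c6 peak (23561892 to 23562889) at rank 463 of 530, with a −log10 p of 9.22, so 1 of 64 members was listed where 3.05% of all genes were. The IDR lists of SETβ addback, SETα overexpression and SETβ overexpression held 0 members, where 2.88%, 0.162% and 0.0732% of all genes had an IDR peak.

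Few of the peaks at members were strong, and their median lay at or above that of all peaks in the SETα addback and SETβ overexpression lists. The 45 and 46 genes of SETα addback were reached by 37 and 47 distinct peaks, with a median −log10 p of 4.77 and 4.93 against 4.40 and 4.93 over all peaks of the list. A −log10 q of at least 5 was reached by 3 and 3 of these peaks. They were those at H2ac7 (−log10 p 12.6), H2ac23 (9.22) and H3c6 in replicate 1, and at H3c6, H3c10 (10.9) and H2ac4 (9.09) in replicate 2. In SETβ addback 1 and 0 peaks reached it, the 1 being at H3c6, and in the overexpression libraries 0. In SETβ overexpression 9 and 14 distinct peaks reached members, with a median −log10 p of 4.14 and 4.42 against 3.76 and 3.90 over all peaks, and a median fold of 2.98 and 3.06 against 2.73 and 2.81.

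The positions of histone peaks were compared between the replicates of each group. In SETα addback 16 of 37 member peaks of replicate 1 (43.2%) overlapped a peak of replicate 2, against 23.1% of all its peaks, and 16 of 47 the other way (34.0%, against 32.4%). In SETβ overexpression 6 of 9 (66.7%) overlapped one of the other replicate, against 62.3% of all peaks, and 6 of 14 (42.9%) against 28.8%. In SETβ addback 1 of 2 (50%, against 48.3%) and 1 of 8 (12.5%, against 12.5%) did, the peak at H3c6. In SETα overexpression 0 of the 2 member peaks of replicate 2 did, against 33.9%, and replicate 1 had no member peak. By gene, 34 members had a peak in both SETα addback replicates (53.1%, against 32% of all genes). The same held for 1 SETβ addback gene (H3c6, 1.56%, against 8.03%), for 0 with SETα overexpression (against 1.94%) and for 10 with SETβ overexpression (15.6%, against 1.17%). Positions shared between the sets of libraries were also counted, and 6 of 9 and 9 of 14 SETβ overexpression peaks at members overlapped a peak of some addback library, against 31.3% and 31.6% of all peaks of those libraries. Member peaks lie near genes by definition, while all peaks include those away from genes. The shares over all peaks given above, between replicates and between sets, are therefore not matched to the member peaks.

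By gene, 21 members had a peak in an overexpression library and 20 of them also had one in an addback library. The exception was H2bc14, an H2B gene (chromosome 13, 21722044 to 21722526). Its peaks in SETβ overexpression had a −log10 p of 4.70 and 5.40, with summits at −411 and −469 bp from its start, and no addback library listed it (exact test, p = 0.429, adjusted p = 0.717).

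Members with a peak in at least 2 overexpression libraries numbered 10 (15.6%, against 3.32% of all genes). They were H2bc13, H2ac13, H3c10, H2bc14, H2bc23, H2ac23, H4bc24, H2ac12, H2bc12 and H3c7, and each was in both SETβ overexpression libraries. Of these 10, 5 were H2B genes (among them H2bc23 and H4bc24, which are longer than 1000 bp), 3 H2A genes, 2 H3 genes and 0 H4 or H1 genes, and 7 stood in the first block of chromosome 13. Several of these genes shared a peak, such as H2ac12 and H2bc12, which stand head to head and were reached by 1 peak in each SETβ overexpression library, with a −log10 p of 3.56 in both.

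H2ac13, an H2A gene (chromosome 13, 21716412 to 21716859), was listed in 6 libraries, the most of any member, with 3 in each background (exact test, p = 1). In SETα addback the strongest −log10 p was 7.12 and 10.9, the second at a peak whose summit lay in the next gene, H3c10. In SETβ addback replicate 2 it was 4.31, with the summit in the neighbouring H2bc13. In SETα overexpression replicate 2 it was 4.76, also with the summit in H2bc13, while the peak with its summit in H2ac13 had 4.14. In the SETβ overexpression libraries it was 4.14 and 6.07. SETβ addback replicate 1 and SETα overexpression replicate 1 had none. Summits in the gene lay 197 bp from the start in SETα addback replicate 1, 215 bp in SETα overexpression replicate 2 and 231 and 180 bp in SETβ overexpression, so 4 libraries from both backgrounds placed a summit between 180 and 231 bp, and none of these lay in the promoter shown above. The peaks at H2ac13 also reached H2bc13 or H3c10 or both, which is why these 3 genes appear together.

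Members with a peak in at least 3 addback libraries numbered 9 (14.1%, against 20.2% of all genes), a smaller share than over all genes. Besides H3c6 and H1f6 they were H2ac13, H2ac4, H3c1, H3c2, H3c11, H3c13 and H4c1, each listed in SETα addback replicates 1 and 2 and SETβ addback replicate 2. H2ac4 had a −log10 p of 5.70, 9.09 and 5.27 in these libraries, and the H3 gene H3c2 shared its strongest peak in each. H3c13, on chromosome 3, had 4.24, 4.20 and 6.98, and 4.14 in SETβ overexpression replicate 1. H3c11 had 5.44, 6.10 and 4.60, and 3.01 in SETβ overexpression replicate 1. H4c1 and H3c1 shared their strongest peak in SETα addback replicate 1 (5.44) and their peak in SETβ addback replicate 2 (4.29), the latter with its summit in H4c1. In SETα addback replicate 2 H4c1 had 4.20 and H3c1 3.51, at ranks 10220 and 13648 of 15701.

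By histone class, H3 genes led in SETα addback, with 10 and 12 of 12 genes (91.7% ± 11.8, SD, n = 2), above H2A (73.5% ± 12.5), H4 (70.8% ± 5.89) and H2B (58.8% ± 16.6). Over all genes the shares were 46.7% and 41.2%. Both H3 libraries lay above both libraries of each other class, with H3 and H2B farthest apart, and the differences among H2A, H4 and H2B were within or near the spread between replicates. In SETβ overexpression the order was another, with H2B first (38.2% ± 4.16), then H3 (33.3%, 4 genes in each library), H2A (23.5%, 4 genes in each) and H4 (8.33% ± 11.8), where 1.62% and 4.75% of all genes had a peak. All 6 members longer than 1000 bp were H2B genes, and of the other 11 H2B genes SETβ overexpression had 4 and 3 (31.8% ± 6.43, SD, n = 2), so H2B was not first without the long genes. H4 genes were at 0 and 2 of 12 there and at 8 and 9 of 12 in SETα addback.

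By block, SETα addback had 13 and 13 of 18 genes in the first block of chromosome 13, 5 and 5 of 5 in the next, 18 and 23 of 29 in the large block with the linker genes, and 9 and 5 of 10 on chromosome 3, against 46.7% and 41.2% of all genes. SETβ overexpression had 10 and 8 of 18, 2 and 3 of 5, 1 and 5 of 29, and 2 and 0 of 10, against 1.62% and 4.75% of all genes, so the first block held 10 of its 15 and 8 of its 16 genes. SETβ addback had 0 and 5, 0 and 0, 2 and 6, and 0 and 2, against 10.7% and 28.4% of all genes. The testis pair H2ac1 and H2bc1 had no peak in any library. Nor had H2ac6, H2bc4, H4c3 and H4c14, which made 6 members without a peak (9.38%, against 39.2% of all genes).

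The summits stood mostly inside the genes, downstream of the start. Of 85 addback summits within 1 kb of a listed histone start, 22.4% lay upstream and 56.5% between 101 and 500 bp into the gene, where over all protein-coding genes the shares were 38.0% and 34.3% of 15862 summits. Each summit was assigned to the nearest listed start. At head-to-head pairs, a summit upstream of 1 gene could thus count as inside its partner, so the layout of the clusters limits the upstream share. A summit in a member without a listed start could count as upstream of a neighbour, such as that at −933 bp from H4c1, which lay in H3c1. Of 22 overexpression summits at histone genes 9.09% lay upstream and 77.3% between 101 and 500 bp, against 47.7% and 25.6% of 813 summits over all genes. These pools mix the libraries differently. SETβ overexpression gave 8 and 12 of the 22 histone summits, while SETα overexpression gave 182 and 346 of the 813. By library, the histone share between 101 and 500 bp was 67.6% and 46.3% in SETα addback, 75% of 8 summits in SETβ addback replicate 2 and 75% of 8 and of 12 summits in SETβ overexpression. Over all genes it was 35.5% and 35.1% in SETα addback and 31.9% in SETβ addback replicate 2. In SETβ overexpression it was 51.4% of 37 and 30.6% of 248 summits over all genes. SETβ addback replicate 1 had 2 histone summits, those of H3c6 and H1f6, and neither was in that range. The H3c6 promoter summits described above were thus among a minority of 19 upstream summits in addback. The median width of member peaks was 216 to 305 bp by library, against a median gene length of 492.5 bp, which limits how finely a position within these genes can be read.

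**Figure D4:**
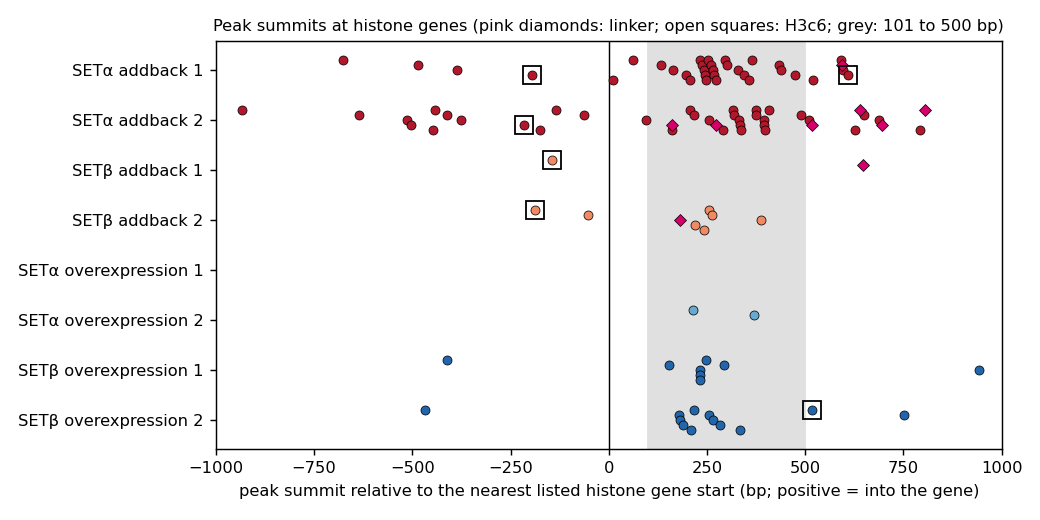
Position of each peak summit within 1 kb of the nearest listed histone gene start, in bp, for the 8 libraries (circles, core genes; pink diamonds, linker genes; open squares, H3c6; grey band, 101 to 500 bp into the gene). The H3c6 squares stand at −195, −217, −144 and −187 bp in the addback libraries, with further H3c6 summits at 610 bp in SETα addback replicate 1 and at 517 bp in SETβ overexpression replicate 2, and most other summits are inside the band.

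Per gene, the presence of a peak was compared between 4 addback and 4 overexpression libraries by a two-sided Fisher's exact test over all 11626 genes with a peak in any library, 58 of them members. The smallest possible p was 0.0286, and the smallest adjusted p (Benjamini-Hochberg) was 0.288, so 0 genes passed after adjustment. At an unadjusted p under 0.05, 1146 genes (9.86%) were listed in more addback libraries and 8 (0.0688%) in more overexpression libraries, and of the 58 members 0 were in either. Without SETβ addback replicate 1, the shortest addback list, 2857 genes (24.7%) were in more addback libraries at that p, and of the members H2ac4, H3c1, H3c2 and H4c1. Without SETβ addback replicate 2 H1f6 was, 1 of 58 members against 12.9% of all genes tested, and without SETβ overexpression replicate 2 H3c6 was, 1 of 58 against 10.5%. With peaks of a q of at most 0.05 H3c6 was too, 1 of 47 members against 7.94%. In each of these comparisons the members' share was below that over all genes tested. None of these passed after adjustment.

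The neighbours of the histone genes served as a comparison within the same stretches of chromosome. Between the histone genes lay 50 other protein-coding genes, of which 36 were vomeronasal receptor genes (Vmn1r), expressed mainly in sensory neurons of the nose. The Vmn1r genes had 0 peaks in all 8 libraries. Of the other 14, Zfp184, Abt1 and Btn1a1 had peaks in 3 addback libraries and Zfp322a in 2, and in the overexpression libraries none of the 50 had one. The same stretches held 77 transfer RNA genes, of which SETα addback libraries had peaks at 35 and 40 and SETβ addback libraries at 8 and 23, against 0 and 0 with SETα overexpression and 0 and 10 with SETβ overexpression. In SETβ overexpression replicate 1 the histone genes therefore had peaks where the transfer RNA genes had none. Of the distinct member peaks, 1 and 1 in SETα addback and 0 in the other libraries lay within 1 kb of a transfer RNA gene.

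Short genes in general were rarely listed. Of 1388 other protein-coding genes of at most 1000 bp, the share with a peak in addback was 2.77% ± 0.46 for SETα and 0.94% ± 0.31 for SETβ (SD, n = 2 each). With overexpression it was 0.54% ± 0.25 for SETα and 0.32% ± 0.15 for SETβ (SD, n = 2 each). For the 58 members of that length the means were 71.6%, 12.1%, 2.59% and 21.6% in the same order. Expression of these genes was not measured, and they differ from histone genes in more than length.

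Histone genes outside the clusters, mostly variants whose expression is not tied to DNA replication, were described as well, 10 of 13 named genes being on the analysed chromosomes. Of these 10, SETα addback had peaks at 10 and 8 (against 46.7% and 41.2% of all genes) and SETβ addback at 2 and 3 (against 10.7% and 28.4%). SETα overexpression had them at 0 and 0 (against 2.52% and 4.68%) and SETβ overexpression at 0 and 4 (against 1.62% and 4.75%). H3f3a, which encodes the replacement histone H3.3, had peaks in all 4 addback libraries (−log10 p 6.15, 5.06, 4.70 and 6.17) and in SETβ overexpression replicate 2 (2.90). H1f0, the replacement linker histone, had 17.3 and 6.90 in SETα addback and no peak elsewhere. H1f10, another linker histone outside the clusters, had 5.44 and 5.70 in SETα addback and no peak elsewhere. None of the 10 had an IDR peak.

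Genes that act in the expression and 3′ end processing of histone mRNA were described beside them, 17 of 22 named genes being on the analysed chromosomes. SETα addback had peaks at 13 and 13 of the 17 and SETβ addback at 8 and 10, where the same 46.7%, 41.2%, 10.7% and 28.4% of all genes had one. SETα overexpression had them at 0 and 1 and SETβ overexpression at 1 and 1, near the 2.52%, 4.68%, 1.62% and 4.75% of all genes. Slbp, whose protein binds the stem-loop of histone mRNAs, was in all 4 addback libraries (−log10 p 7.63, 8.20, 5.69 and 7.41). Ncbp1 and Ncbp2 (the nuclear cap-binding complex), Srrt, Cpsf3 (the cleavage endonuclease) and Zfp473 were in all 4 as well, and all 5 were in the SETα addback IDR list. Srrt, Cpsf3 and Ncbp2 were also in that of SETβ addback. Npat, whose product activates histone genes in the histone locus body, had 1 peak, in SETα addback replicate 1 (−log10 p 2.94), and Casp8ap2, another component of that body, had none. Pou2f1, whose product binds the octamer, was in both SETβ overexpression libraries (−log10 p 2.98 and 3.76) and in 3 addback libraries.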

How the data were processed

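HA chromatin immunoprecipitation of 8 libraries was analysed, 2 in each of 4 groups; 2 further samples were not analysed here. Bowtie2, MACS2 and deepTools, with GRCm38 and mm10, are named per the submitters' processing notes; versions, the control and the handling of reads with several matches are not given in the sources used here. The authors called peaks per library. The score, the fold enrichment (a linear ratio) and the −log10 p and −log10 q are the deposited values of the peak caller, used only to rank, filter or describe peaks within a list. The authors' IDR lists hold peaks with an IDR of at most 0.05. Read depth was not used here.

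Genes came from a RefSeq table of GRCm38.p6 without chromosomes 8 and 11. A gene had a peak when a peak overlapped it or 1 kb on either side by at least 1 bp. Strongest peaks were ranked by −log10 p, then fold. Presence was tested per gene with Fisher's exact test and Benjamini-Hochberg adjustment (scipy 1.17.1, pandas 2.3.3, Python 3.11.15). The overlap and test code, tested on simulated presence over 19134 genes (addback against overexpression), recovered 200 of 200 planted genes. Named genes were all linker genes, members with an IDR peak, and core genes listed in at least 3 addback or 2 overexpression libraries. H2ac7 and the members without a peak were named after their values were seen. The members, lists and rules were chosen with earlier results of these data known. Listed starts were found for 59 members. Promoters were not found for H2bc21, H4c14, H3c7, H2bc4 and H3c1.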

Additional observations from a re-analysis of the deposited data

Results flagged for a closer look

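The difference between the isoforms had opposite signs in the presence and absence of endogenous SET. In SET KO, both SETα libraries (45 and 46 histone genes with a peak) lay above both SETβ libraries (2 and 13), a difference of 38 genes. The share of all genes moved the same way there, with 46.7% and 41.2% for SETα and 10.7% and 28.4% for SETβ. With endogenous SET, both SETα libraries (0 and 3) lay below both SETβ libraries (15 and 16), a difference of −14 genes, where 2.52% and 4.68% of all genes had a peak with SETα and 1.62% and 4.75% with SETβ. With all peaks, the libraries did not overlap in either background. With peaks of a q of at most 0.05 the difference was 31 genes in SET KO and −2 with endogenous SET, where SETβ replicate 1 had 0 genes like both SETα libraries. With a −log10 q of at least 5 the differences were 5.5 and 0, and with the strongest 1343 peaks 5.5 and −14. With the strongest 500 peaks the difference in SET KO was 0. The difference between these differences was not tested, and the 4 groups were 4 cell lines, so cell line and group cannot be told apart.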

How the results depend on the processing

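Each count was repeated with other windows and thresholds. A 1 kb window at the listed start, and equal list lengths within addback, were added after seeing the data. Stricter thresholds and shorter lists leave fewer peaks by construction; otherwise the cause was not tested.

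Addback exceeded overexpression by 12.25 genes with the gene body alone and by 3.25 with −log10 q of at least 5; with the strongest 1343 peaks it reversed to −1.75. SETα minus SETβ in addback was 25.5 with the gene body alone, 5.5 with the strongest 1343 and with −log10 q of at least 5, 31 with q of at most 0.05, 9 with the strongest 2518, 0 with the strongest 500 and 22 with the strongest 9768 without SETβ addback replicate 1. In overexpression it was −9 with the gene body alone, −19.5 with 2.5 kb, −2 with q of at most 0.05 and 0 with −log10 q of at least 5.

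The linker minus core difference in addback reversed to 6.18 points with the gene body alone, 0.144 with the strongest 1343 peaks, 18.2 without SETα addback replicate 1 and 0.431 without SETβ addback replicate 2. In overexpression it was −9.48 with the gene body alone, −1.72 with q of at most 0.05 and 0 with −log10 q of at least 5.

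Genes listed in more addback libraries at an unadjusted p under 0.05 numbered 517 with the strongest 1343 peaks, 456 with −log10 q of at least 5 and 692 with q of at most 0.05. With replicate numbers paired between backgrounds within each isoform (replicate block) the number was 0, since the smallest possible p is 0.125. The labels do not tie equal numbers to a shared culture, so they share only a number.

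Leaving out 1 library gave 15.25 to 20.75 for addback minus overexpression, 32.5 to 43.5 for SETα minus SETβ in addback and −15.5 to −12.5 in overexpression, −26.9 to 18.2 points for linker minus core in addback and −15.9 to −13.4 in overexpression, and 1151 to 2857 genes, the highest without SETβ addback replicate 1.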
